A study of Mus musculus with 10 samples.

Results

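The keratin and keratin-associated genes were taken as every gene whose symbol in the platform annotation is Krt plus a number or begins with Krtap, together with Krtdap, and all of their single-gene probe sets on an Affymetrix mouse array were followed. There were 87 such genes of 18193 on the array, read by 105 probe sets of 45037. The tissue was the gastrocnemius, the large muscle of the calf. Mice were male, 12 to 16 weeks old and fasted for 18 h. Muscles of 5 mice lacking Skn-1, also called Pou2f3, a POU-domain transcription factor made in epidermis, taste cells and tuft cells, were set against those of 5 wild-type mice. The labels give a mixed 129 x C57BL/6J background for both genotypes and add, of the deficient line, over 10 generations of backcrossing to C57BL/6J. The diet was chow, and the labels call the arrays biological replicates.

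Keratins are the intermediate filament proteins of epithelial cells, and a type I chain always pairs with a type II chain. Dividing basal keratinocytes of the epidermis make Krt5 and Krt14, and the suprabasal cells above them change to Krt1 and Krt10. In the hair follicle, the inner root sheath, which moulds the growing hair, has keratins of its own (Krt25 to Krt28 and Krt71 to Krt74). The hair shaft is built from the hair keratins (Krt31 to Krt40 and Krt81 to Krt87) embedded in keratin-associated proteins. Those proteins form families rich in sulphur or in glycine and tyrosine. Krt8 and Krt18 are the pair of simple epithelia such as glands, and Krt4, Krt12 and Krt13 belong to mucosa and cornea. Adult muscle fibres are built on other filaments, chiefly desmin.

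The deposited values were read as log2 intensities from their range, 4.93 to 13.96, since the base is not stated. Array medians lay between 6.226 and 6.239. Most of the array hardly moved: only 13.79% of all probe sets had an SD over the 10 arrays above 0.01. Such probe sets are called varying here, and of the others only the level is given, with no fold. The single Pou2f3 probe set was not among the varying ones and stood at 6.47 ± 0.000289 (SD, n = 5) in knockouts and 6.47 ± 0.000244 (SD, n = 5) in wild types, so it does not check the labels. Precision is limited by having 5 arrays of each genotype. An array is called raised for a gene where it lay at least 0.5 above the median of the 10 arrays. By that measure 4 arrays stood apart, knockouts 1 and 4 and wild types 1 and 3, and the comparison of genotypes is given with and without them. Wild type 3 and knockout 5 stood apart in lymphocyte genes as well. In bulk tissue, fewer cells of a type and less RNA per cell cannot be told apart.

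Among the keratin and keratin-associated probe sets 50 varied, which is 47.62% of the 105. They belonged to 48 genes. The varying ones were 9 epidermal keratin probe sets of 20, 6 inner root sheath probe sets of 7, 6 hair keratin probe sets of 12, 27 keratin-associated probe sets of 43, the single Krtdap probe set and 1 of 5 among the remaining keratins. None of the 8 simple epithelial and none of the 9 mucosal and corneal probe sets varied. The genes of these families sit in clusters: 20 of the 38 keratin-associated genes lie on chromosome 16 and 10 on chromosome 11, and the keratins are split between chromosomes 11 and 15.

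Promoter sequences show a feature that the choice of genes did not use. RefSeq promoter windows of the GRCm38.p6 build were matched for 69 of the 87 genes. A window of 100 bases, 80 before and 20 after the transcription start that the table gives, was searched on the gene's strand for TATAAA, the core of the TATA box. It was present in 32 of 41 genes with a varying probe set (78%), in 13 of 28 with none (46.4%) and in 1090 of 27025 genes in the table (4.03%). Among the 41, all 6 inner root sheath genes, all 3 hair keratins and 21 of 25 keratin-associated genes held it, but only 1 of 5 epidermal keratins, Krt10. Windows of 5 genes, from Krtdap and each of 4 kinds of keratin gene, are printed 5′ to 3′ on the gene's strand to show this shared element, with TATAAA in capitals.
Krtdap: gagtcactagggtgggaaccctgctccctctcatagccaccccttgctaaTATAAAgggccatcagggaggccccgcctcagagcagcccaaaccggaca
Krt10: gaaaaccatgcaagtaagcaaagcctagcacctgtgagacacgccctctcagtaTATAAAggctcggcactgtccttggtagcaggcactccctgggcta
Krt34: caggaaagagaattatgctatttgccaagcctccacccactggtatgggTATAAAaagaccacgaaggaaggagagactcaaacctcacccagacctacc
Krt27: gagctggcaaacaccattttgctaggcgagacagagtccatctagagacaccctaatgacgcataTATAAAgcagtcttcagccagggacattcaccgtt
Krtap8-1: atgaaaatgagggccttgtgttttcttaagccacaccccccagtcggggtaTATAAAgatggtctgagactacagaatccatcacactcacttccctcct
Krtdap lies on the plus strand at chr7:30787825-30787924, with TATAAA beginning 30 bases before the start. The other 4 are on the minus strand: Krt10 at chr11:99389345-99389444 (26 bases before), Krt34 at chr11:100041535-100041634 (31 bases), Krt27 at chr11:99351099-99351198 (15 bases) and Krtap8-1 at chr16:89487933-89488032 (29 bases). Over the full 300 bases and both strands, CTTTGA, the core bound by LEF1, was in 14 of the 41 windows (34.1%), against 16.2% of all. TGANTCA, the core bound by AP-1, was in 6 (14.6%), against 7.93% of all. Among the 28 genes with no varying probe set, CTTTGA was in 4 (14.3%) and TGANTCA in 3 (10.7%). Of the varying genes, CTTTGA was in 9 of 25 keratin-associated genes and all 3 hair keratins. It was in 1 of 6 inner root sheath genes and 0 of 5 epidermal keratins. A match is a description of letters and not of a bound factor.

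Of 6 suprabasal keratins of the epidermis, 3 varied (Krt1, Krt10 and Krt77), and these were high in knockouts 1 and 4. The other 3, Krt2, Krt78 and Krt80, did not vary. Krt10, the main type I keratin of differentiating epidermis, stood at 8.90, 6.69, 6.72, 9.17 and 6.79 in knockouts 1 to 5, against 7.07, 6.94, 7.82, 6.68 and 6.81 in wild types 1 to 5. The 2 high knockouts lay above every wild-type array, and wild type 3 was the next highest. Krt1, the partner of Krt10, stood at 7.36, 5.78, 5.94, 7.58 and 6.04 in knockouts 1 to 5, against 5.87, 6.01, 6.18, 5.93 and 5.92 in wild types 1 to 5. Only knockouts 1 and 4 stood clear, since wild type 3 was little above the rest. Krt77, another type II keratin, was measured at 7.56, 6.05, 6.02, 8.14 and 5.98 in knockouts 1 to 5, against 5.96, 5.97, 6.77, 6.11 and 5.94 in wild types 1 to 5. Again knockouts 1 and 4 were highest, wild type 3 followed and wild type 1 was at the level of the low arrays.

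Krtdap, a small secreted protein of differentiating keratinocytes, had the same order with a wider range. Its level was 8.83, 6.13, 5.62, 9.06 and 6.08 in knockouts 1 to 5, against 5.80, 5.70, 7.17, 5.68 and 5.84 in wild types 1 to 5. Knockouts 1 and 4 exceeded the median of the 10 arrays by 2.87 and 3.10, wild type 3 exceeded it by 1.21 and wild type 1 did not.

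In the 4 arrays that stood apart, all 4 varying probe sets of the 3 basal keratins lay above every other array. By the limit of 0.5, 3 of the 4 were raised in knockout 1 and 4 in knockout 4, against 2 in wild type 1 and 2 in wild type 3. Krt5, the type II keratin of basal cells, read 7.49, 6.04, 5.85, 8.17 and 6.002 in knockouts 1 to 5, against 7.68, 5.93, 6.99, 5.93 and 5.96 in wild types 1 to 5. The genotypes interleave here, because wild type 1 lay between knockouts 4 and 1. Krt14, its type I partner, read 7.35, 6.02, 6.01, 7.94 and 6.03 in knockouts 1 to 5, against 6.98, 5.84, 6.76, 5.95 and 6.04 in wild types 1 to 5 on the probe set with the widest range. Its other probe sets moved less: another read 6.197, 5.73, 5.75, 6.49 and 5.72 in knockouts 1 to 5, against 5.96, 5.71, 5.99, 5.80 and 5.68 in wild types 1 to 5 and the third did not vary. Krt15, a basal keratin also of the hair follicle bulge, reached 6.89 and 7.64 in knockouts 1 and 4, against 6.41 and 6.65 in wild types 1 and 3, with all other arrays between 5.96 and 6.25. Krt17, of the outer root sheath and of stressed epidermis, was highest in wild type 1 at 6.63, close to the 6.60 of knockout 4. Its other probe set did not vary. Krt79, of the upper hair follicle, stood at 7.12 and 7.70 in knockouts 1 and 4, against 6.05 and 6.96 in wild types 1 and 3, so that wild type 1 was not raised.

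**Figure D1:**
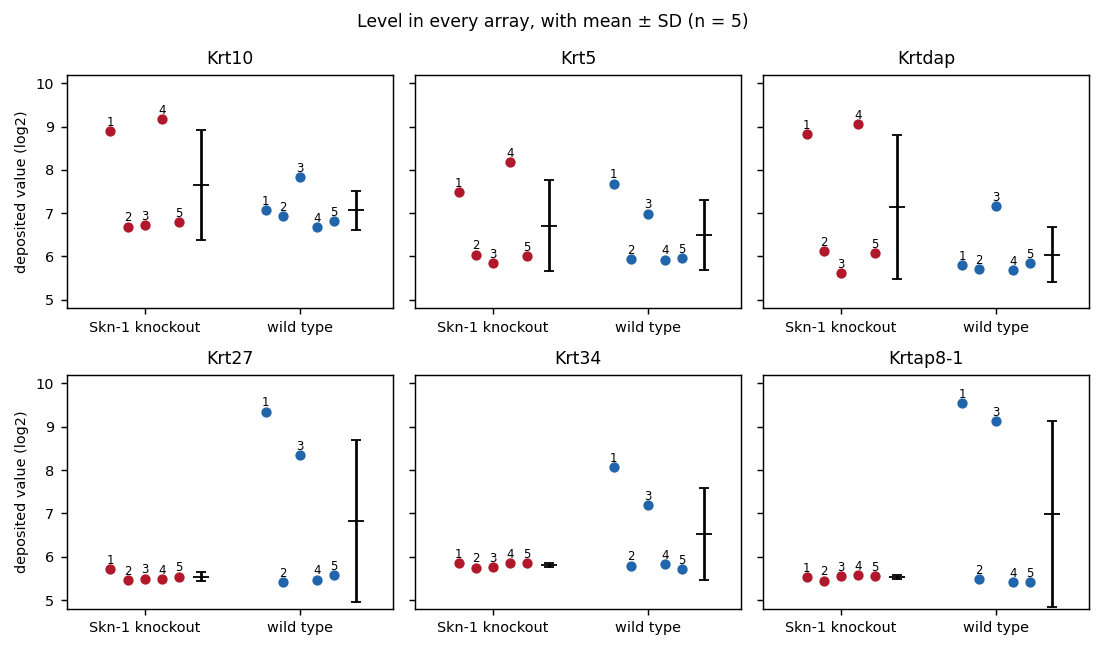
Deposited value (log2, vertical axis) of 6 genes in each of 5 Skn-1 knockout arrays (red, left) and 5 wild-type arrays (blue, right), numbered by replicate, with mean ± SD in black. Krt10 and Krtdap are highest in knockouts 1 and 4 with wild type 3 next, Krt5 is high in those 2 knockouts and in wild types 1 and 3, and Krt27, Krt34 and Krtap8-1 are high only in wild types 1 and 3.

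The keratins of the inner root sheath showed another set of arrays. Krt27, a type I keratin of that sheath, stood at 5.71, 5.46, 5.50, 5.48 and 5.54 in knockouts 1 to 5, against 9.35, 5.41, 8.34, 5.47 and 5.58 in wild types 1 to 5. Wild types 1 and 3 lay 3.83 and 2.82 above the median, and the other 8 arrays spanned 5.41 to 5.71. Krt25, another type I keratin of the sheath, stood at 5.88, 5.98, 5.79, 5.75 and 5.78 in knockouts 1 to 5, against 9.10, 5.92, 8.21, 5.86 and 5.83 in wild types 1 to 5. Wild types 1 and 3 were again alone, with no knockout above 5.98. Krt71, a type II keratin in which mutations give curly coats in mice, was at 5.98, 6.02, 5.86, 5.95 and 5.88 in knockouts 1 to 5, against 8.89, 6.11, 7.90, 5.99 and 5.97 in wild types 1 to 5. The order of the 2 high arrays was the same. Krt73, a type II keratin of the sheath cuticle, was at 5.73, 5.67, 5.66, 5.88 and 5.90 in knockouts 1 to 5, against 7.84, 5.71, 7.14, 5.82 and 5.74 in wild types 1 to 5. Krt28 and Krt26 had narrower ranges, with 7.18 and 6.81 in wild type 1 and 6.58 and 6.25 in wild type 3. The seventh gene of the group, Krt72, did not vary.

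Hair shaft keratins followed the inner root sheath. Krt34, a type I hair keratin of the cortex, stood at 5.85, 5.75, 5.76, 5.85 and 5.85 in knockouts 1 to 5, against 8.07, 5.80, 7.18, 5.83 and 5.71 in wild types 1 to 5. Only wild types 1 and 3 were high, and knockouts 1 and 4 were within the range of the low arrays. The other 5 varying hair keratins were Krt31, Krt33a, Krt33b, Krt35 and Krt86. They reached at most 6.26 in any knockout, against 7.21 to 7.56 in wild type 1 and 6.70 to 7.01 in wild type 3.

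The keratin-associated proteins held the widest range of all. Krtap8-1, of the group rich in glycine and tyrosine, stood at 5.53, 5.45, 5.56, 5.58 and 5.55 in knockouts 1 to 5, against 9.55, 5.48, 9.14, 5.41 and 5.41 in wild types 1 to 5. Wild types 1 and 3 exceeded the median by 4.01 and 3.60, and the other 8 arrays lay between 5.41 and 5.58. Krtap7-1 of the same group was at 5.14, 5.48, 5.37, 5.59 and 5.54 in knockouts 1 to 5, against 7.93, 5.27, 7.68, 5.34 and 5.35 in wild types 1 to 5. Krtap22-2 was at 5.63, 5.64, 5.62, 5.56 and 5.56 in knockouts 1 to 5, against 8.29, 5.58, 7.64, 5.63 and 5.56 in wild types 1 to 5. Krtap6-5 had 5.63, 5.70, 5.65, 5.55 and 5.60 in knockouts 1 to 5, against 8.09, 5.59, 7.59, 5.65 and 5.52 in wild types 1 to 5. In each of these the 5 knockouts stayed below both high wild types. Krtap19-9b read 5.80, 5.59, 5.66, 5.77 and 5.61 in knockouts 1 to 5, against 7.90, 5.70, 7.64, 5.76 and 5.56 in wild types 1 to 5. Its knockouts 1 and 4 also lay above the low arrays, though only by 0.07 and 0.04 over the median.

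Genes of the ultra-high-sulphur families, whose cysteines cross-link the hair cuticle and cortex, gave the same 2 arrays. Krtap9-3 stood at 5.09, 5.21, 4.996, 5.15 and 5.11 in knockouts 1 to 5, against 7.75, 5.11, 7.29, 5.03 and 5.15 in wild types 1 to 5. Krtap4-1 stood at 5.48, 5.54, 5.48, 5.54 and 5.57 in knockouts 1 to 5, against 7.76, 5.59, 6.999, 5.55 and 5.54 in wild types 1 to 5. Krtap4-2 was measured at 5.35, 5.35, 5.33, 5.30 and 5.25 in knockouts 1 to 5, against 7.52, 5.35, 6.83, 5.27 and 5.28 in wild types 1 to 5. Wild type 1 exceeded wild type 3 in all 3 genes. Krtap4-16 was at 5.91, 5.93, 5.91, 5.89 and 5.83 in knockouts 1 to 5, against 8.06, 5.85, 7.25, 5.95 and 5.94 in wild types 1 to 5. Krtap4-6 was at 5.87, 5.89, 5.96, 5.76 and 5.82 in knockouts 1 to 5, against 7.66, 5.77, 7.08, 5.94 and 5.78 in wild types 1 to 5. The Krtap4 genes are near copies of each other, so their probe sets may share transcripts, as may those of the other Krtap families.

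Krtap11-1, a high-sulphur protein, had 5.79, 5.80, 5.75, 5.70 and 5.84 in knockouts 1 to 5, against 7.58, 5.73, 7.52, 5.88 and 5.74 in wild types 1 to 5. A further 3 proteins were given no class here. Krtap14 had 5.12, 5.38, 5.19, 5.11 and 5.19 in knockouts 1 to 5, against 8.12, 5.05, 7.80, 5.09 and 5.23 in wild types 1 to 5. Krtap15 had 5.55, 5.59, 5.55, 5.64 and 5.54 in knockouts 1 to 5, against 7.78, 5.55, 7.83, 5.53 and 5.58 in wild types 1 to 5, and here wild type 3 was the higher. Krtap16-3 had 5.10, 5.26, 5.19, 5.20 and 5.13 in knockouts 1 to 5, against 7.58, 5.15, 7.14, 5.02 and 5.24 in wild types 1 to 5 on the probe set with the wider range. All 27 varying keratin-associated probe sets had wild types 1 and 3 above the 8 other arrays, with ranges from 0.85 to 4.14.

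**Figure D2:**
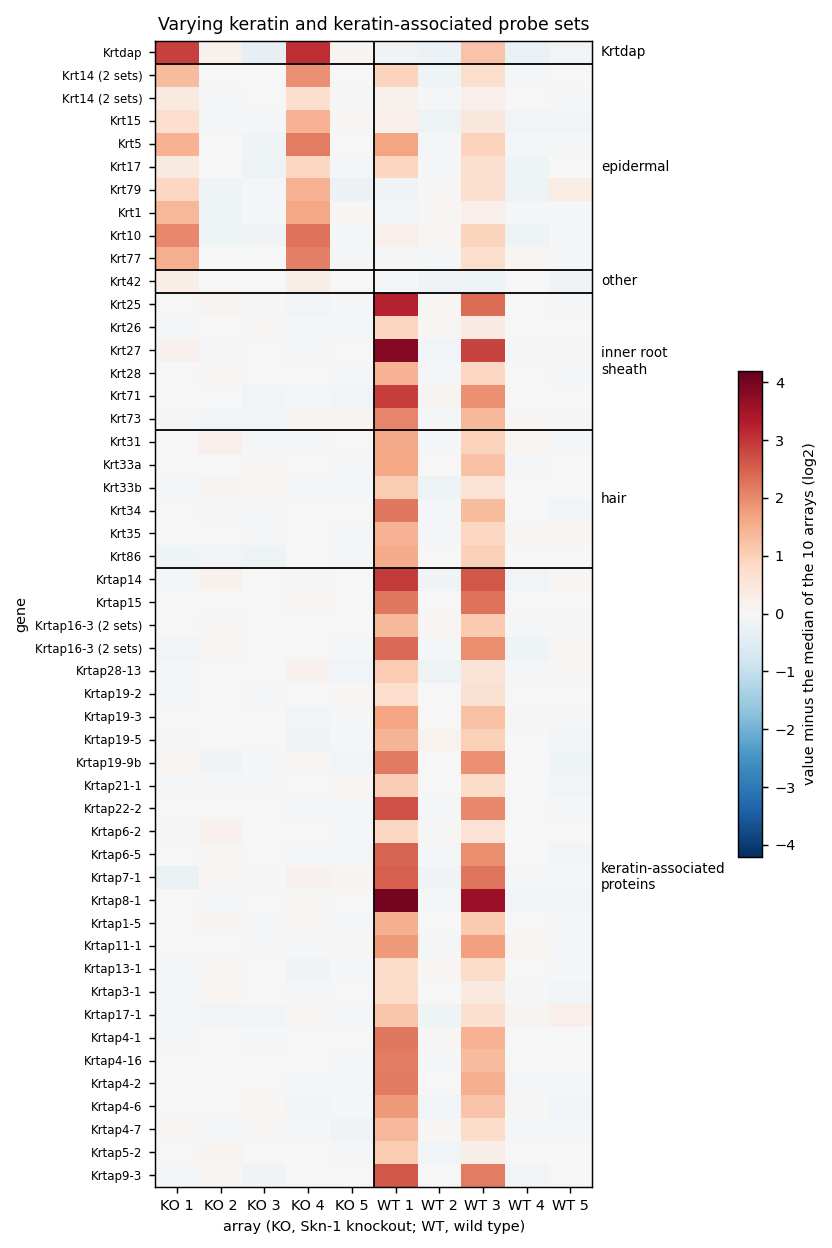
Each row is 1 of the 50 varying probe sets and each column an array, knockouts left and wild types right; colour gives the value minus that probe set's median over the 10 arrays (log2). Epidermal keratins and Krtdap are red in knockouts 1 and 4, and some of them, mostly less strongly, in wild types 1 and 3. Krt17 is strongest in wild type 1, where Krt5 also exceeds its value in knockout 1. Inner root sheath, hair and keratin-associated genes are red only in wild types 1 and 3.

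Counted over the 50 varying probe sets, 8 were raised in knockout 1 and 10 in knockout 4, against 42 in wild type 1 and 43 in wild type 3. In the other 6 arrays 0 were raised. With a limit of 1 in place of 0.5 the counts were 6 and 8 in those knockouts, against 35 and 25 in those wild types. Wild types 1 and 3 were both above all other arrays in 39 probe sets: all 6 hair, all 6 inner root sheath and all 27 keratin-associated ones. Knockouts 1 and 4 were both above all others in 9, which were 7 epidermal probe sets, Krtdap and Krt42. Those are 78% and 18% of the 50, against 5.35% and 4.09% of all 6209 varying probe sets in the same order. No hair, inner root sheath or keratin-associated probe set was raised in any knockout. The arrays that did not stand apart were close: over those 6 the range was under 0.5 in 48 of the 50, the exceptions being Krtdap (0.51) and Krt79 (0.57).

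Averaged over the probe sets of a group, the epidermal keratins lay 1.12 and 1.62 above the median in knockouts 1 and 4, against 0.42 and 0.63 in wild types 1 and 3. Of these the 3 varying suprabasal ones were 1.64 and 2.00 above in the same knockouts, and 0.01 and 0.63 above in the same wild types. Inner root sheath keratins were 2.40 and 1.61 above in wild types 1 and 3, hair keratins 1.59 and 1.001, and keratin-associated proteins 1.81 and 1.40. The same 3 groups lay between -0.05 and 0.02 of the median in all knockouts. In wild type 1, 3 of the 9 epidermal probe sets were raised, and in wild type 3, 6 of 9.

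**Figure D3:**
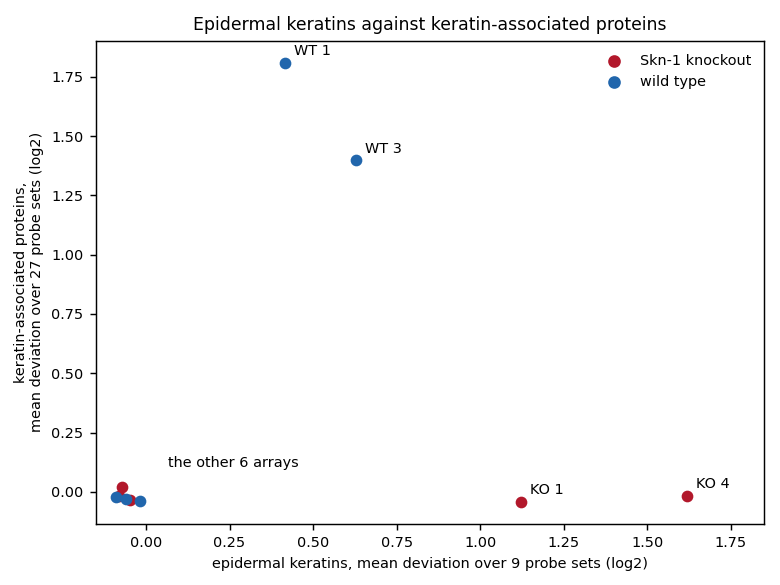
Mean deviation from the 10-array median (log2) of the 9 varying epidermal keratin probe sets (horizontal) and of the 27 varying keratin-associated probe sets (vertical), 1 point per array. Knockouts 1 and 4 (red) lie to the right at the bottom, wild types 1 and 3 (blue) lie high, and the other 6 arrays sit at the origin.

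The 2 high wild types differed in which group of genes was the higher. Wild type 1 minus wild type 3 was 0.79 at the median for inner root sheath keratins, 0.58 for hair keratins and 0.43 for keratin-associated proteins, but -0.75 for the 3 varying suprabasal keratins and -1.37 for Krtdap. Among the keratin-associated proteins the median was 0.64 for the ultra-high-sulphur families, 0.34 for those rich in glycine and tyrosine and 0.20 for the high-sulphur ones. The 9 probe sets on chromosome 11 had a median of 0.58 and the 16 on chromosome 16 a median of 0.26. Chromosome and class overlap, so these are not separate observations. The varying Krtap4 genes, Krtap9-3 and Krtap17-1 lie on chromosome 11, and all varying genes rich in glycine and tyrosine on chromosome 16. In the knockouts, all 9 epidermal probe sets were higher in knockout 4 than in knockout 1, by 0.58 at the median. These are single arrays, and no test applies.

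Between the genotypes, the epidermal keratins averaged 6.60 ± 0.807 in knockouts and 6.27 ± 0.326 in wild types (SD over array means, n = 5 each), a difference of 0.33. Inner root sheath keratins averaged 5.78 ± 0.0301 in knockouts and 6.59 ± 1.14 in wild types, hair keratins 5.86 ± 0.0293 and 6.39 ± 0.753 in the same order, and keratin-associated proteins 5.66 ± 0.0244 in knockouts and 6.31 ± 0.906 in wild types. The differences were -0.82, -0.53 and -0.64. Each was smaller than the SD of the wild types, and the epidermal one smaller than the SD of the knockouts. Without the 4 arrays that stood apart the differences were -0.0116 for epidermal keratins, -0.0195 for the inner root sheath, 0.0038 for hair keratins and 0.0178 for keratin-associated proteins. Single arrays moved them too: the epidermal difference was 0.05 without knockout 4 and 0.18 without knockout 1, and without wild type 1 the other 3 were -0.42, -0.26 and -0.35.

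No keratin or keratin-associated probe set passed an adjusted p of 0.05 in limma's fit of all 45037 probe sets, which called 0.191% of them. None passed in the fit over genes either, which called 0.0275% of 18193. At an unadjusted p under 0.05 there were 2 of the 105, against 6.62% of all probe sets, and 1 of the 50 varying ones, against 9.92% of all varying probe sets in that fit. Of the 50, 0 separated the genotypes without overlap, against 3.96% of all varying probe sets. Krtap8-1 differed by -1.46 ± 0.94 (SE, knockout minus wild type; adjusted p = 0.909). Krt27 differed by -1.29 ± 0.82 (adjusted p = 0.907) and Krtdap by 1.10 ± 0.77 (adjusted p = 0.928). Without the 4 arrays that stood apart limma called 0 of all 45037 probe sets, so its 0 of the 105 is not particular to these genes. In that fit Krtap8-1 differed by 0.09, Krt27 by 0.01 and Krtdap by 0.20. Among the 50 varying probe sets 10 were higher and 40 lower in knockouts, with a median difference of -0.50. Wild types 1 and 3 lay above all other arrays in 39 of the 50, so that split mostly repeats those arrays. All 6209 varying probe sets split 3054 to 3155, with a median of -0.0021. A range over 1 was found in 86% of the 50, against 12.6% of all varying probe sets.

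Krt42, a type I keratin that is a pseudogene in people, was unlike the rest. Its varying probe set stood at 8.34, 8.09, 8.05, 8.32 and 8.08 in knockouts 1 to 5, against 7.999, 7.91, 7.87, 8.08 and 7.92 in wild types 1 to 5. Knockouts 1 and 4 were the 2 highest here too, but the spread was only 0.47. The difference was 0.22 ± 0.071 (SE; adjusted p = 0.536, limma), and it was the varying member with the smallest p. The genotypes overlapped, as wild type 4 at 8.08 was above knockout 3 at 8.05. Krt36, the other with an unadjusted p under 0.05, named after its p was seen, did not vary by this measure.

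The 55 probe sets that did not vary had levels of 5.53 to 7.02. They included Krt8 on all 3 of its probe sets (5.71 to 5.79) and Krt18 (6.08), the simple epithelial pair. Wild types 1 and 3 were the 2 highest arrays in 15 of the 55 (27.3%), against 1.87% of all 38828 probe sets of this kind. Those 15 included 8 of 16 keratin-associated, 3 of 6 hair and the single inner root sheath probe set, but 0 of 8 simple epithelial and 0 of 9 mucosal and corneal ones. Knockouts 1 and 4 were the 2 highest in 1 of the 55 (1.82%), against 3.39% of all such probe sets, and in 0 of 11 epidermal ones. The sizes of these differences, all within an SD of 0.000613, were not read. A further 7 probe sets name a keratin or keratin-associated gene together with other genes and were left out by the rule, and 5 of them varied, each highest in wild type 1. The set shared by Krtap6-1 and 2 genes with clone or predicted names read 5.47 to 5.64 in knockouts, against 8.17 and 7.68 in wild types 1 and 3.

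Marker lists of other tissues were read beside these values. Of 42 probe sets of cornified epidermis 24 varied, and 21 were raised in knockout 1 and 21 in knockout 4, against 4 in wild type 1 and 14 in wild type 3, with 1 in knockout 5. Their mean level ran from 5.92 to 7.48 in knockouts and from 5.90 to 6.66 in wild types. Lor, which encodes loricrin of the cornified envelope, stood at 8.07, 5.74, 5.86, 8.40 and 5.82 in knockouts 1 to 5, against 5.90, 5.72, 6.78, 5.87 and 5.80 in wild types 1 to 5. On this probe set, its widest in range, Lor had the order of the suprabasal keratins, with wild type 1 among the low arrays. Another Lor probe set did not vary. Not every marker of the list had that order. The 4 raised in wild type 1 were Crct1, Dmkn, Gjb2 and Sprr1a, and Gjb2 and Sprr1a were highest there (6.90 and 7.08). Ly6d was highest in wild type 3 at 8.08, with knockout 5 next at 7.71. Of 24 probe sets of keratinocyte adhesion 11 varied, raised in knockouts 1 (9) and 4 (11) and in wild types 1 (8) and 3 (7). Mean levels were 5.68 to 7.26 in knockouts and 5.70 to 6.76 in wild types. Dsp, the desmosomal plaque protein desmoplakin, stood at 7.97, 5.40, 5.39, 8.39 and 5.46 in knockouts 1 to 5, against 7.81, 5.34, 7.45, 5.35 and 5.37 in wild types 1 to 5. Here all 4 arrays were high, as for Krt5, on the Dsp probe set with the widest range. Another Dsp probe set did not vary.

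Hair shaft and follicle markers varied in 6 of 18 probe sets, of which 1, Lef1, was raised in knockout 5, against 5 in wild type 1 and 5 in wild type 3. Lef1 was also 1 of the 5 in wild type 3, at 7.08 there and 7.07 in knockout 5, against 6.43 in wild type 1. The mean level of the 6 was 5.77 to 5.92 in knockouts and 5.79 to 7.82 in wild types. Tchh, encoding trichohyalin of the inner root sheath, stood at 5.27, 5.26, 5.35, 5.27 and 5.23 in knockouts 1 to 5, against 9.72, 5.31, 8.58, 5.28 and 5.16 in wild types 1 to 5. S100a3, a calcium-binding protein of the hair cuticle, was at most 5.50 in knockouts, against 8.21 and 7.66 in wild types 1 and 3. In the sebaceous list 1 of 6 probe sets varied, Far2, at 5.83 to 6.87 in knockouts and 5.80 to 6.27 in wild types. None of 11 melanocyte and none of 11 simple epithelial probe sets varied. Skeletal muscle markers averaged 12.5 to 12.7 in knockouts and 12.5 to 12.6 in wild types, so the labelled tissue was present in every array.

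Lymphocyte markers varied in 10 of 13 probe sets, all raised in knockout 5 and all in wild type 3, with mean levels of 5.78 to 7.48 in knockouts and 5.75 to 7.49 in wild types. Knockout 5 had 0 raised keratin probe sets, and wild type 1, with 42, had 0 raised lymphocyte markers. Adipocyte markers varied on all 8 probe sets, and their high arrays were only in part those of the keratins. Of the 8, 1 was raised in knockout 1, 3 in knockout 4 and 4 in knockout 5, against 3 in wild type 3 and 3 in wild type 5. Wild type 5, like knockout 5, had 0 raised keratin probe sets. The mean level of adipocyte markers was 8.65 to 9.49 in knockouts and 8.40 to 9.64 in wild types. Its mean deviations were -0.0013, 0.46 and 0.50 in knockouts 1, 4 and 5. In wild types 1, 3 and 5 they were -0.28, 0.66 and 0.21. The part of either list in the keratin values was not tested. Whether the keratin transcripts came from skin or hair carried along with the muscle was not tested.

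**Figure D4:**
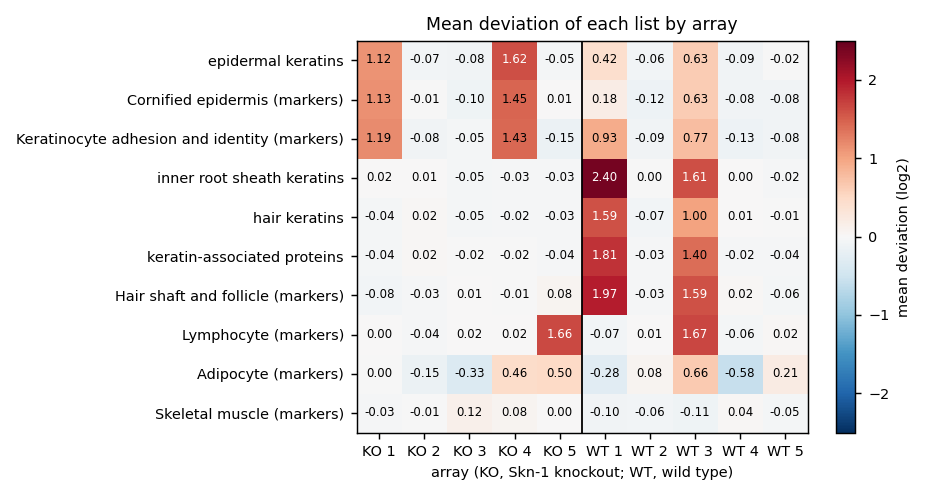
Mean deviation from the 10-array median (log2, printed in each cell) of the varying probe sets of 4 keratin groups and 6 marker lists, by array, knockouts left and wild types right. Epidermal lists are highest in knockouts 1 and 4 (1.12 to 1.62) and lower but above the median in wild types 1 and 3 (0.18 to 0.93), hair lists are high in wild types 1 and 3 and lymphocyte markers in knockout 5 and wild type 3, while muscle markers stay within 0.12.

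Outside the keratins, the 8 probe sets with the largest gap to the next array were read for knockout 4 and wild type 1, the arrays that were highest for at least 3 described genes. In knockout 4 they were Pgm1, by 1.11 over the next array, then Ppargc1a, a coactivator of mitochondrial genes, on 3 probe sets (1.05, 0.96 and 0.84), Elovl4 (0.99), Sdr16c6 (0.95), Psapl1 (0.92) and Rnase2b (0.77). Ppargc1a was not particular to knockout 4, since knockouts 2, 3 and 5 also lay above every wild type on all 3 probe sets. On the set with a gap of 0.96 it read 7.61, 8.22, 8.53, 9.78 and 8.82 in knockouts 1 to 5. Wild types 1 to 5 read 7.57, 7.53, 7.84, 7.75 and 7.32 there. Elovl4 makes the very long fatty acids of the skin barrier. In wild type 1 they were Tchh (1.14), the proline-rich hair protein Prr9 (0.88), the gap junction gene Gjb2 (0.72), Serpina1c (0.71), Vsig8 (0.57), Bola3 (0.55) and 2 probe sets of another gene (0.93 and 0.62), which is not reported here.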

How the data were processed

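Total RNA of 10 gastrocnemius muscles was labelled with a 3′ IVT kit and hybridised to 1-colour Affymetrix arrays, per the labels' protocols. The authors deposited 1 table of values, read here as log2 intensities already normalized between arrays; which software and normalization produced them is not given in the sources used here. Its 45101 rows included 64 array controls, which were left out, and 0 columns were unused. Genes came from the platform annotation: 34945 probe sets had 1 symbol, 932 several and 9160 none. All 105 member probe sets matched a RefSeq gene table of GRCm38.p6 by gene identifier, used for names and chromosomes.

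Genotypes were compared with limma 3.58.1 (lmFit, eBayes) in R 4.3.3 over all probe sets and, separately, over the brightest probe set of each gene, with Benjamini-Hochberg adjustment at 0.05, and the fit was tested on simulated data. Group means over varying probe sets (SD above 0.01) have no test. Tables were made with pandas 2.3.3 and numpy 2.4.6 under Python 3.11.15, and figures with matplotlib 3.10.9. Up to 25 members with a range of at least 0.5 were described in every array, those with the widest range first; other members were named after their values were seen. The members, their grouping, the marker lists and the promoter motifs were chosen with earlier results of these data known. Replicate numbers pair no animals in the labels. Alternatives changed normalization, filters, variance moderation, array weights, block, probe set choice and the arrays used; leaving out the 4 arrays that stood apart was chosen after seeing the data.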

Additional observations from a re-analysis of the deposited data

Results flagged for a closer look

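Of 58 sets of 5 arrays examined (the described genes and the group means, each genotype apart), 2 held a single array far from the other 4. The rate of about 1 in 20 by which chance marks independent sets does not apply here. These sets share arrays, and their genes were taken for a wide range. A set with 2 arrays at a like height cannot be marked. Krtdap stood at 7.17 in wild type 3, and the next highest wild type was at 5.84. That gap made up 0.894 of the range of the wild types, above the critical ratio of 0.71 for 5 arrays. Krt77 stood at 6.77 in wild type 3, with the next wild type at 6.11 and a ratio of 0.794. Wild type 1, which was the other high array for hair genes, was at 5.80 for Krtdap and 5.96 for Krt77. The knockouts, where 2 arrays were high in both genes, gave no such lone array.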

How the results depend on the processing

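No keratin or keratin-associated probe set was called in any of 18 other settings over probe sets (smallest adjusted p = 0.262, limma), nor any gene. The count over all probe sets, 86, was 43 after quantile normalization, 5 with the replicate number as a block, 143 when only varying probe sets were tested, 31 to 57 with 1 array left out and 0 without knockouts 1 and 4 and wild types 1 and 3 (2912 at an unadjusted p under 0.05). Of 435 alternative differences of described members 419 kept their direction and 16 reversed; the smallest adjusted p was 0.647. Without those 4 arrays Krtap8-1 (0.0889), Krt27 (0.0127), Krtap14 (0.13), Krtap7-1 (0.14), Krtap9-3 (0.0091), Krtap22-2 (0.0165), Krtap6-5 (0.0602), Krtap16-3 (0.0578), Krt34 (0.0081), Krtap15 (0.0047), Krtap4-2 (0.0123), Krtap4-6 (0.0625) and Krtap11-1 (0.0117) turned from lower to higher in knockouts, and Krt10 (-0.0733) and Krt1 (-0.0326) from higher to lower; the mean differences moved to 0.0038 for hair keratins and 0.0178 for keratin-associated proteins. These follow from leaving out the arrays that held the high values. Krt5 ranged from -0.15 (without knockout 4) to 0.51 with 1 array left out. The filter on probe sets above the median level left 10 described members to test, and simple epithelial keratins gave no group mean, having no varying probe set. With the replicate block no member was called. Deviations of same-numbered arrays had correlations of 0.25, 0.32, -0.40, 0.02 and -0.14. Knockouts 1 and 2 correlated best with the wild type of their own number, and knockouts 3, 4 and 5 with another. The labels pair no animals, and so few correlations cannot decide whether the numbers mark a pairing. The cause of the lower count of 5 was not tested. Probe sets with almost no spread limit what can be read for 55 of the 105.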
